A study of Danio rerio with 8 samples.

Results

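The vascular endothelial growth factor (VEGF) axis was described here through 10 zebrafish genes: the ligand genes vegfaa, vegfab and vegfc, the receptor genes kdr, kdrl, flt1 and flt4, and the neuropilin genes nrp1a, nrp1b and nrp2a. The members were taken by name, and each of the 10 names matched a single row among the 32520 genes of the count table. The study asked how loss of heparanase 2 (Hpa2, encoded by hpse2) alters endothelial cells, and sequenced polyadenylated RNA of GFP-positive cells sorted from Tg(fli1:EGFP)y1 larvae at 96 hours post fertilisation. All larvae had the wild-type genotype and were injected at the one-cell stage, either with a standard control morpholino or, for Hpa2 loss of function (LOF), with one aimed at the hpse2 splice site between an exon and an intron. Each group had 4 libraries, made as 2 libraries for each of 2 biological replicates, and 60 to 80 larvae were pooled before sorting. The libraries are named by biological replicate and library (control 1_1, 1_2, 2_1 and 2_2, and LOF 1_1, 1_2, 2_1 and 2_2). The fli1 promoter also drives GFP in neural crest derivatives, which include cartilage, so the sorted cells were a mixture.

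VEGF ligands are secreted dimers that bind receptor tyrosine kinases on endothelial cells. Vegfa, which zebrafish carry as the duplicates vegfaa and vegfab, acts mainly through the VEGFR2-type receptors Kdrl and Kdr and drives angiogenic sprouting, endothelial survival and permeability. Vegfc acts mainly through Flt4, the VEGFR3 of venous and lymphatic endothelium. Flt1 binds Vegfa tightly with weak kinase activity, and its soluble form holds ligand away from the other receptors. Neuropilins are co-receptors with no kinase domain, and they also serve as receptors for class 3 semaphorins. Heparan sulphate binds the longer Vegfa isoforms and helps to retain them at the cell surface and in the matrix. In the gene descriptions deposited with the counts, vegfaa and vegfab carried a VEGF heparin-binding domain and vegfc did not.

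The libraries held 5048839 to 11344918 counts. Endothelial markers were present but were a small share of the counts. The 17 endothelial markers summed to 777 to 1082 CPM (each count scaled to a library of 1e6 counts), against 19668 to 38335 CPM for 18 neural crest and cartilage markers and 35262 to 49446 CPM for 10 fibroblast markers. These sums cover different genes, are not scaled by length and do not measure shares of cells. The sum of the neural crest and cartilage list moved with the groups, from 31236 to 38335 CPM in control to 19668 to 26949 CPM in the LOF-labelled libraries. Of its 17 tested genes 3 were called lower (edgeR adjusted p under 0.05), beside 14 of all 15559 tested genes (0.09%) called in either direction. The log2 fold change was above 0 for 4 of the 17, ucmaa (0.64), barx1 (0.19), runx2b (0.12) and dlx2a (0.0084). The first principal component, computed without the 10 VEGF-axis genes, held 40.3% of the variance and separated the libraries into sets that crossed the groups. The first library set held control 1_1 and 1_2 with LOF 2_1 and 2_2, and the second held control 2_1 and 2_2 with LOF 1_1 and 1_2. Nothing in the labels gives a reason for these sets, and whether replicate numbers or library labels were exchanged was not tested. An exchange of library labels between the groups would change what every difference between the groups means. An exchange of replicate numbers within a group would leave the group means unchanged. The library sets were found after the data were seen, and no test was made between them. The hpse2 level was 28.5 ± 5.78 CPM (SD, n = 4) in control and 65.8 ± 20.3 CPM (n = 4) in the LOF-labelled libraries, a log2 fold change of 1.20 ± 0.23 (SE, edgeR adjusted p = 0.130). The targeted gene was thus counted more often under the LOF label. A morpholino at a splice junction acts on splicing and need not lower the count over a gene, so this value does not check the labels, and the libraries are called LOF-labelled.

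Levels are given in CPM on scaled library sizes. The 10 genes were ranked against each other per length, as RPKM (counts scaled by gene length and library size) over the gene length deposited with the counts. Marker sums and percents of a marker sum are in CPM and are not per length. Per length, the neuropilins stood highest, then flt4, and all other receptors and ligands lay lower. nrp1a had a mean of 52.6 ± 7.56 RPKM (SD over 8 libraries) and nrp2a 50.4 ± 4.73 RPKM, and nrp1a was the higher of the pair in 5 of 8 libraries. nrp1b followed at 21.1 ± 3.06 RPKM, below nrp2a in 8 of 8 libraries with no overlap of their ranges. flt4, at 19.0 ± 3.42 RPKM, was below nrp1b in 7 of 8 libraries although the ranges overlapped. vegfaa reached 12.8 ± 1.09 RPKM and was below flt4 in 8 of 8 libraries. The middle of the order was not resolved: kdrl (10.2 ± 3.73 RPKM) was below vegfaa in 5 of 8 libraries, and vegfab (9.33 ± 2.13 RPKM) was below kdrl in 4 of 8. vegfc, at 8.79 ± 1.78 RPKM, was below vegfab in 6 of 8 libraries, and kdr, at 5.00 ± 1.24 RPKM, was below vegfc in 8 of 8. flt1 was last at a mean of 0.0219 RPKM.

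**Figure D1:**
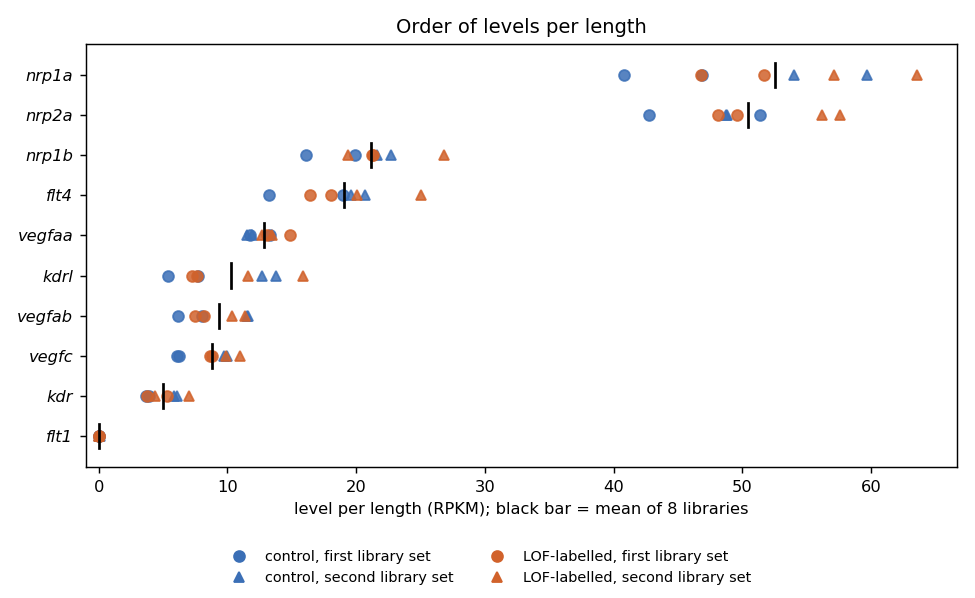
Level per length (RPKM, horizontal axis) of the 10 VEGF-axis genes, 1 point for each of the 8 libraries, with a black bar at the mean of the 8. The ranges of neighbouring genes are separate only between nrp2a and nrp1b and between kdr and flt1.

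vegfaa (ENSDARG00000103542, chromosome 16: 4287542 to 4317879 on the minus strand of GRCz11) encodes a Vegfa ligand and was the steadiest member of the axis. Its level was 35.3, 31.3, 31.7 and 30.6 CPM in control 1_1, 1_2, 2_1 and 2_2, and 35.8, 33.8, 39.5 and 34.7 CPM in LOF 1_1, 1_2, 2_1 and 2_2. The highest library was LOF 2_1 and the lowest control 2_2, and the groups overlapped because control 1_1 lay above LOF 1_2 and 2_2. The means were 32.2 ± 2.08 CPM in control and 35.9 ± 2.50 CPM in the LOF-labelled libraries (SD, n = 4 each), a log2 fold change of 0.16 ± 0.10 (SE, 95% interval −0.069 to 0.38, edgeR adjusted p = 0.873).

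vegfab (ENSDARG00000034700, chromosome 4: 5568688 to 5597802, minus strand) encodes the second Vegfa. Its level was 24.0, 18.5, 34.8 and 34.7 CPM in the 4 control libraries and 34.0, 31.1, 22.4 and 24.6 CPM in the 4 LOF-labelled libraries, in the same order. The 4 libraries of the second set were all above the 4 of the first, within both groups, and the groups overlapped over most of their range. The group means were 28.0 ± 8.12 and 28.0 ± 5.43 CPM, and the log2 fold change was −0.0099 ± 0.21 (interval −0.48 to 0.46, edgeR adjusted p = 0.998).

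vegfc (ENSDARG00000069640, chromosome 1: 38850830 to 38908197, minus strand) encodes the ligand of Flt4. It was counted at 13.9, 13.7, 21.7 and 22.3 CPM in control and at 24.5, 22.1, 19.3 and 19.6 CPM under the LOF label. Control 1_1 and 1_2 were the lowest of the 8 libraries, while control 2_1 and 2_2 lay among the LOF-labelled values. The means were 17.9 ± 4.75 and 21.4 ± 2.42 CPM, and the log2 fold change was 0.25 ± 0.19 (interval −0.16 to 0.66, edgeR adjusted p = 0.894). It ran from 0.15, without control 1_1 or without control 1_2, to 0.37, without control 2_2, as single libraries were left out. A gene on the opposite strand, CU915762.1, overlaps vegfc and had a summed count of 1 over all libraries, against 1312 for vegfc.

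kdr (ENSDARG00000017321, chromosome 20: 22220988 to 22277544, plus strand) and kdrl (ENSDARG00000105215, chromosome 14: 32983769 to 33044955, minus strand) encode the VEGFR2-type receptors for Vegfa. kdr was at 21.0, 19.7, 31.4 and 32.7 CPM in control and at 23.6, 37.5, 28.6 and 20.3 CPM in the LOF-labelled libraries. Its lowest and highest libraries, control 1_2 and LOF 1_2, were in different groups, yet low and high values occurred in both. The means were 26.2 ± 6.78 and 27.5 ± 7.49 CPM, with a log2 fold change of 0.062 ± 0.22 (interval −0.43 to 0.55, edgeR adjusted p = 0.985).

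kdrl varied most of the 9 tested VEGF-axis genes, by 2.94-fold from its lowest to its highest library. It was at 44.7, 31.3, 79.7 and 73.3 CPM in control and at 67.3, 91.9, 41.7 and 44.3 CPM in the LOF-labelled libraries. Every library of the first set was at or below 44.7 CPM and every library of the second at or above 67.3 CPM, with 2 of each group on either side. The means of 57.3 ± 23.0 and 61.3 ± 23.4 CPM therefore had wide errors, and the log2 fold change was 0.092 ± 0.34 (interval −0.67 to 0.86, edgeR adjusted p = 0.986).

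flt1 (ENSDARG00000019371, chromosome 24: 21750810 to 21808819, minus strand) was close to absent from the table. Its count was 0, 0, 2 and 4 in the control libraries and 0, 1, 2 and 0 under the LOF label, 9 of 65139156 counts in all, or 0.138 CPM of total counts (exact 95% interval 0.0632 to 0.262). A library with a count of 0 allows a level of up to 0.346 to 0.594 CPM of total counts (3 counts of its total), and intervals and limits of this kind cover counting error only. The gene was too low to enter the test. The summed counts of 6 in control and 3 in the LOF-labelled libraries gave a ratio of 0.506 with an exact 95% interval of 0.0820 to 2.37, so no difference was detectable at this depth. No other gene in the table overlaps flt1, and why so few reads were assigned to it was not tested. Its gene model, at 5499 bases, was as long as those of kdr (5381 bases) and kdrl (5790 bases), which were counted at 94 to 380 and at 149 to 884 reads per library.

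flt4 (ENSDARG00000104453, chromosome 14: 15816509 to 15956921, minus strand) encodes the Vegfc receptor and was the most abundant receptor kinase of the 4. Its level was 99.6, 69.3, 103.0 and 108 CPM in control and 105, 132, 94.9 and 86.2 CPM in the LOF-labelled libraries. The lowest library was control 1_2 and the highest LOF 1_2, and the remaining 6 libraries of the 2 groups were interleaved. The means were 95.1 ± 17.6 and 104 ± 19.6 CPM, and the log2 fold change was 0.13 ± 0.16 (interval −0.22 to 0.49, edgeR adjusted p = 0.953). Without LOF 1_2 it was 0.0014 and without control 1_2 it was 0.012, and the highest value with 1 library left out was 0.22.

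nrp1a (ENSDARG00000102153, chromosome 24: 1162325 to 1356668, minus strand) encodes a neuropilin that binds Vegfa and class 3 semaphorins. It was at 232, 202, 267 and 296 CPM in control and at 283, 315, 256 and 232 CPM in the LOF-labelled libraries. LOF 1_2 was the highest and control 1_2 the lowest, with the other libraries of both groups between them. The means were 249 ± 40.9 and 271 ± 35.6 CPM, with a log2 fold change of 0.12 ± 0.14 (interval −0.18 to 0.42, edgeR adjusted p = 0.947). It was 0.034 without control 1_2, 0.042 without LOF 1_2 and 0.21 without control 2_2. A gene on the opposite strand that lies within nrp1a had a count of 0 in every library.

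nrp1b (ENSDARG00000027290, chromosome 2: 43469241 to 43507278, plus strand), the duplicate of nrp1a, was at 40.3, 32.6, 43.7 and 46.1 CPM in control and at 39.2, 54.4, 43.2 and 43.1 CPM in the LOF-labelled libraries. Apart from control 1_2 at the low end and LOF 1_2 at the high end, the libraries lay close together. The means were 40.7 ± 5.89 and 45.0 ± 6.55 CPM, and the log2 fold change was 0.14 ± 0.14 (interval −0.16 to 0.44, edgeR adjusted p = 0.924). It was 0.034 without LOF 1_2 and 0.053 without control 1_2, and at most 0.20 with any single library left out. Its gene model was short, at 2026 bases against 4950 for nrp1a, and its deposited description named the CUB and F5/8 type C domains but not the MAM and C-terminal neuropilin domains named for nrp1a and nrp2a. The level of nrp1b per length rests on that model.

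nrp2a (ENSDARG00000096546, chromosome 1: 5606460 to 5746030, minus strand) encodes a Neuropilin-2, the co-receptor linked to Vegfc and Flt4 in mammals. Its level was 279, 232, 265 and 266 CPM in control and 306, 313, 270 and 261 CPM under the LOF label. LOF 1_1 and 1_2 were above every control library, while LOF 2_1 and 2_2 lay inside the control range. The means were 261 ± 19.98 and 288 ± 25.7 CPM, with a log2 fold change of 0.14 ± 0.099 (interval −0.077 to 0.36, edgeR adjusted p = 0.883).

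**Figure D2:**
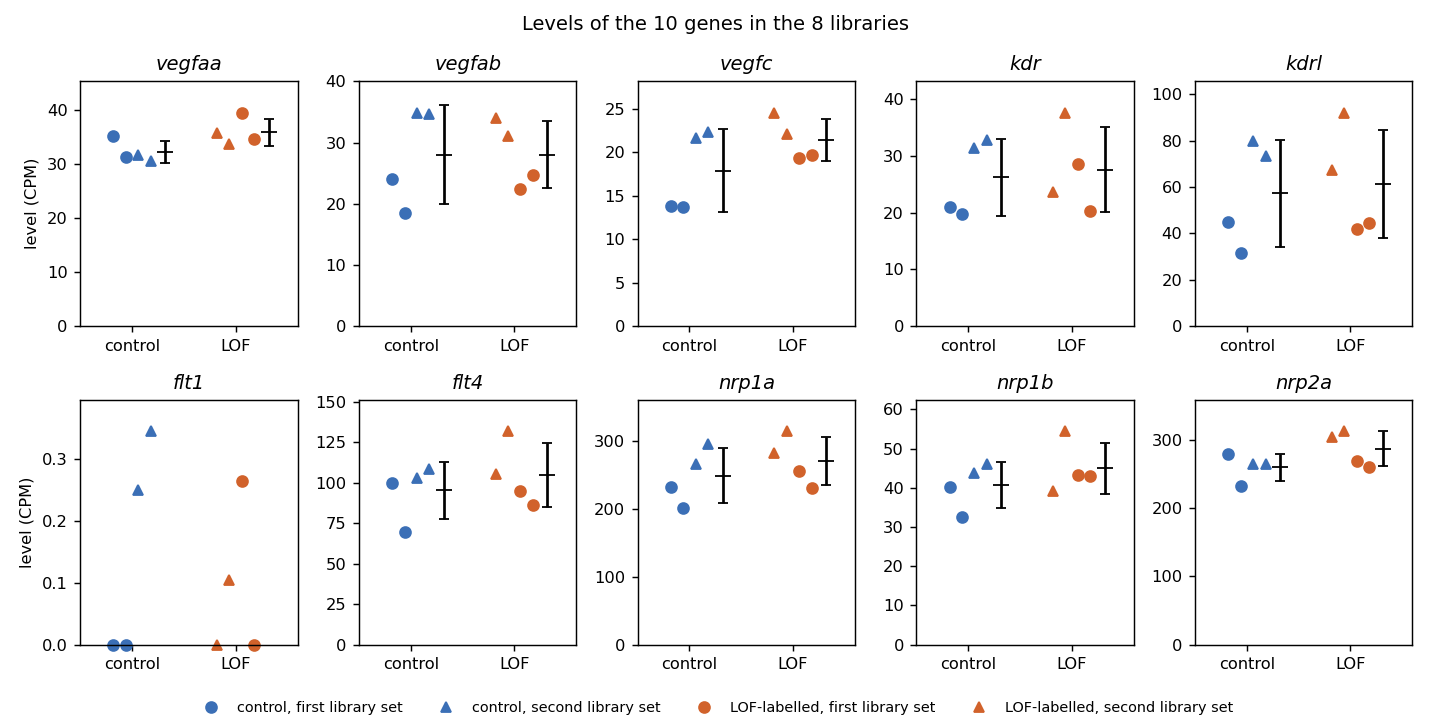
Level (CPM, vertical axes from 0 with a scale of their own in each panel) of each VEGF-axis gene in the 4 control and 4 LOF-labelled libraries; circles are the first library set, triangles the second, and bars give the mean and SD of 4 libraries (none for flt1). kdrl runs from 31.3 to 91.9 CPM with all triangles above all circles in both groups, while vegfaa stays between 30.6 and 39.5 CPM.

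Over the axis, 0 of 9 tested VEGF-axis genes differed between the groups at an edgeR adjusted p under 0.05, where 14 of 15559 tested genes (0.09%) did, 1 of them higher (0.00643%) and 13 lower (0.0836%) in the LOF-labelled libraries. At an unadjusted p under 0.05 the counts were 0 of 9 and 978 of 15559 (6.29%), and the lowest unadjusted p of the 9 was 0.155, for vegfaa. DESeq2 called 0 of the 9 and 95 of the 15549 genes it gave an adjusted p (0.611%), and without the low-count filter 0 of all 10 were called and 32 of 25166 genes (0.127%). The groups overlapped in all 9 genes. Over all tested genes they did not overlap in 723 (4.65%), of which 316 were higher (2.03%) and 407 lower (2.62%) in the LOF-labelled libraries. The estimate was above 0 for 8 of 9 genes, with vegfab the exception, and for 7823 of 15559 genes tested (50.3%), and its median was 0.13 against 0.0017 over all genes. As single libraries were left out, the number above 0 ran from 6 (without control 1_1, control 1_2 or LOF 1_2) to 9, and the median fell to 0.034 without control 1_2 or without LOF 1_2. Other marker lists leaned in the same direction, with 9 of 10 mural cell markers (median 0.14) and 9 of 10 fibroblast markers (median 0.15) above 0, while 4 of 17 endothelial markers were (median −0.15), so a lean above 0 was not particular to the VEGF axis. These 9 estimates come from the same 8 libraries and are not independent of each other. All 9 intervals hold 0. The interval of vegfaa ran from −0.069 to 0.38 and that of nrp2a from −0.077 to 0.36, while that of kdrl was the widest, from −0.67 to 0.86. The 4 libraries of a group are 2 pairs from 2 biological replicates, so these p-values and intervals treat as separate some samples that share a replicate. On that count the intervals may be too narrow. The fit also leaves the contrast between the library sets in the spread, which can widen them. The intervals do not bound a change.

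**Figure D3:**
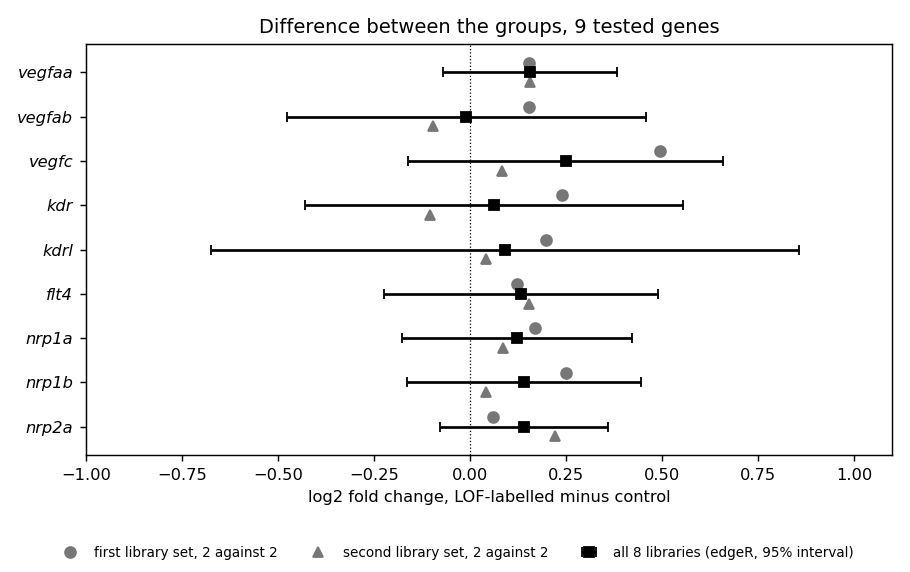
Log2 fold change (horizontal axis, LOF-labelled minus control) of the 9 tested VEGF-axis genes: squares with 95% intervals from edgeR over all 8 libraries, circles and triangles the difference of mean log2 CPM within the first and second library set, 2 libraries against 2. All 9 intervals cross 0, and the widest is that of kdrl, from −0.67 to 0.86.

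Within the library sets, where 2 libraries of a group meet 2 of the other, the differences were not tested. In the first set all 9 genes had a higher mean log2 CPM in the LOF-labelled libraries, by 0.059 (nrp2a) to 0.49 (vegfc). In the second set 7 of 9 did, with vegfab at −0.096 and kdr at −0.11, and nrp2a had the largest difference, 0.22. vegfaa differed by 0.15 and 0.16 in the first and second set, and flt4 by 0.12 and 0.15. kdrl, which had the widest interval over all libraries, differed by 0.20 and 0.041 within the sets. With the library set as a block in edgeR, added after the data were seen, 0 of the 9 genes and 396 of 15559 (2.55%) were called. At an unadjusted p under 0.05, 1 of the 9 passed in that fit, vegfc, with a log2 fold change of 0.27 (unadjusted p = 0.0365, adjusted p = 0.275), beside 2473 of 15559 genes (15.9%).

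The library sets separated the VEGF axis unevenly. vegfab, vegfc, kdrl, flt4 and nrp1a, 5 of the 9 tested genes, were higher in every library of the second set than in any of the first, where 2035 of 15559 genes (13.1%) were so, and 4242 (27.3%) were separated in either direction. kdrl was 1.93-fold higher in the second set by the ratio of means, vegfab 1.503-fold, kdr 1.40-fold, vegfc 1.36-fold, flt4 1.28-fold and nrp1a 1.26-fold. nrp1b (1.152-fold) and nrp2a (1.102-fold) differed less, and vegfaa was at 0.937 of its first-set mean. The same contrast ran through the endothelial markers: 15 of 17 were higher in every library of the second set, among them cdh5, the adherens junction cadherin of endothelium (1.80-fold), the angiopoietin receptor relative tie1 (1.99-fold) and the adhesion molecule pecam1 (3.11-fold). The exceptions were fli1b, at 0.700 of its first-set mean, and she. Endothelium was not alone in this: 10 mural cell markers summed to 1018 to 1188 CPM in the first set and 1449 to 1642 CPM in the second. Of these, myh11a, cspg4 and kcnj8 overlapped between the sets. The sums of erythrocyte markers (458 to 792 CPM, then 86.7 to 124 CPM) and photoreceptor markers (239 to 764, then 76.9 to 120 CPM) were lower in the second set. Not every gene of these lists was so: gata1a, opn1mw1, opn1sw1 and gnat2 overlapped between the sets, and alas2 and opn1lw1 had no counts. The largest photoreceptor gene was rho (35.4 to 450 CPM). The sum of the epidermis list was lower too (2494 to 2981, then 1271 to 1633 CPM), but nearly all of it was pfn1 (1194 to 2903 CPM). In that list krt5, epcam and cldni had no counts, and krt4 (60.3 to 93.9 CPM) overlapped between the sets. Tested genes of these lists, endothelium included, entered the principal component that gave the sets, so their contrast is not independent of it. The part of these cell types in the VEGF-axis levels was not tested. In bulk samples, fewer endothelial cells and less RNA per cell cannot be told apart.

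Libraries of the same biological replicate were mostly closer to each other than to the other replicate of their group. Within a group the biological replicates are also the library sets, so values between replicates restate the set contrast. For kdrl the mean absolute log2 difference was 0.29 within a biological replicate (4 pairs) and 0.95 between the replicates of a group (8 pairs). vegfab (0.16 and 0.59) and vegfc (0.058 and 0.46) had the same pattern, and nrp1a (0.16 and 0.33) a milder one. For vegfaa the values were 0.12 and 0.11, so its libraries varied as much within a replicate as between replicates.

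Ratios within a library, which do not depend on library size, showed the balance of duplicate and partner genes. The ratio of vegfaa to vegfab per length was 1.40 ± 0.458 in control and 1.501 ± 0.375 in the LOF-labelled libraries (SD, n = 4 each). It ran from 1.59 to 1.99 in first-set libraries and from 0.998 to 1.23 in second-set libraries. In the second set it was 1.03 and 0.998 in control 2_1 and 2_2, and 1.19 and 1.23 in LOF 1_1 and 1_2. In the first set the groups overlapped, and neither difference was tested. The ratio of kdrl to kdr was 1.97 ± 0.369 in control and 2.07 ± 0.543 in the LOF-labelled libraries, and flt4 stood at 1.99 ± 0.539 and 1.99 ± 0.421 times the level of kdrl. The flt4 to kdrl ratio was 2.15 to 2.51 for first-set and 1.43 to 1.73 for second-set libraries. The neuropilin balance was steadier: nrp1a to nrp1b was 2.51 ± 0.113 in control and 2.49 ± 0.325 in the LOF-labelled libraries, and nrp1a to nrp2a was 1.05 ± 0.143 and 1.03 ± 0.0543. For all 5 of these ratios the difference between the group means was smaller than either group's SD. Each SD includes the contrast between the library sets, so it is no yardstick for a group difference within a set.

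**Figure D4:**
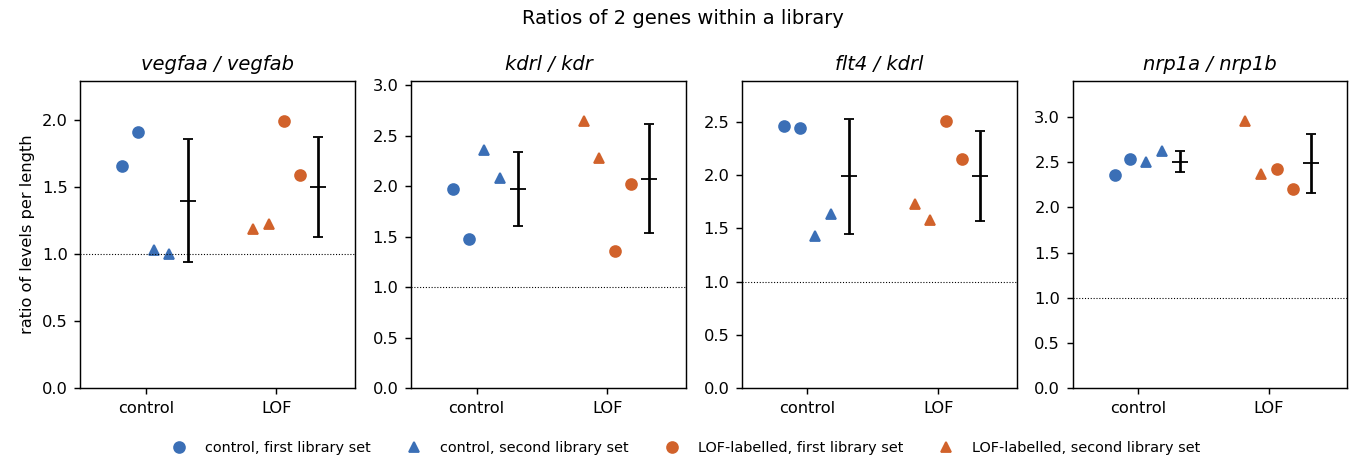
Ratio of levels per length within each library (vertical axes from 0) for 4 pairs of VEGF-axis genes, in control and LOF-labelled libraries, with circles for the first library set, triangles for the second, and bars for the mean and SD of 4 libraries. The vegfaa to vegfab ratio is 1.59 to 1.99 for circles and 0.998 to 1.23 for triangles in both groups together.

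Because the endothelial markers moved with the library sets, each level was also set against their sum. fli1a, the gene behind the GFP reporter, made up much of that sum (482 ± 45.9 CPM in control and 475 ± 51.9 CPM in the LOF-labelled libraries), so the sum of the 16 other markers was used. It was 347 and 357 CPM in control 1_1 and 1_2, 566 and 554 CPM in control 2_1 and 2_2, 462 and 509 CPM in LOF 1_1 and 1_2, and 353 and 351 CPM in LOF 2_1 and 2_2. fli1b was the largest of these 16, at 93.7 ± 18.9 CPM in control and 83.9 ± 21.8 CPM in the LOF-labelled libraries. It was lower in the second set (0.700 of its first-set mean), unlike most of the others, and a sum without it was not made. As a percent of the sum that includes fli1b, kdrl differed between the sets (8.76 to 12.9% and 13.2 to 18.1%). vegfaa moved the other way (8.76 to 11.2% and 5.53 to 7.74%). How far fli1b shaped these set differences was not tested. vegfc was 3.996, 3.82, 3.83 and 4.02% in the 4 control libraries and 5.31, 4.35, 5.48 and 5.59% in the 4 LOF-labelled libraries. On this scale vegfc was higher in every LOF-labelled library than in any control library, at 3.92 ± 0.106% and 5.18 ± 0.569%, and it was the only 1 of the 9 tested VEGF-axis genes whose groups did not overlap. Over all tested genes, 321 of 15559 (2.06%) were higher in this way. With fli1a in the sum the vegfc groups did not overlap either (1.70 to 2.06% and 2.16 to 2.50%), as was so of 442 of 15559 genes (2.84%). In the second set the sum itself was lower in the LOF-labelled libraries (462 and 509 CPM) than in control (566 and 554 CPM). There vegfc differed by 0.084 in mean log2 CPM, against 0.49 in the first set. Each of the 9 genes had a log2 difference above 0 per sum without fli1a, from 0.13 (vegfab) to 0.40 (vegfc), so the direction was not particular to vegfc. The scale was chosen after the data were seen, and the vegfc difference was not tested. The summed mural cell markers overlapped between the groups (1018 to 1500 CPM in control and 1170 to 1642 CPM under the LOF label) but not between the library sets, and the levels were not set against them.

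**Figure D5:**
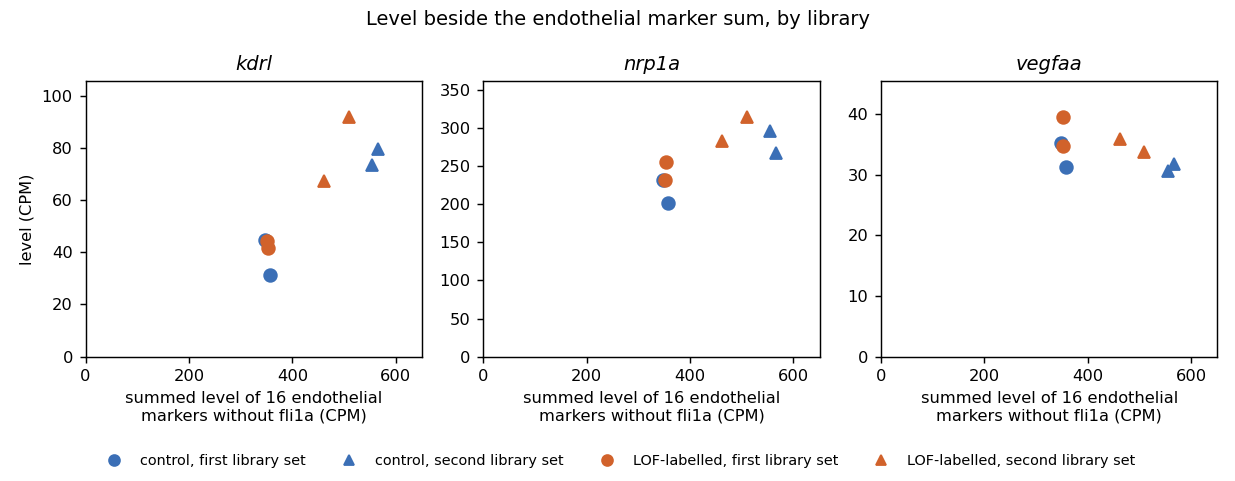
Level (CPM, vertical axes) of kdrl, nrp1a and vegfaa in each of the 8 libraries against the summed level of 16 endothelial markers without fli1a (CPM, horizontal axis). The 4 first-set libraries lie at 347 to 357 CPM of the sum and the 4 second-set libraries at 462 to 566 CPM, with kdrl and nrp1a higher and vegfaa not higher in the second.

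Genes with a pattern like that of the most abundant ligand, receptor and neuropilin were sought among 12085 genes by Pearson's r of log2 CPM over the 8 libraries. These libraries share biological replicates and library sets, so r is a description only. vegfaa was most like gpr63 (r = 0.970), tmem222a (0.961) and il12rb2l (0.931), and 6 genes had r over 0.9 with it. flt4 was most like tshz2 (0.990), pcdh2g28 (0.986) and pald1b (0.980), among 181 genes over 0.9. nrp1a was most like gal3st4 (0.987), lrrc32 (0.986) and pdgfrb (0.985), the receptor of pericytes for platelet-derived growth factor B, among 372 genes over 0.9.

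The other genes of the pathway were followed in 6 lists with 76 genes tested, of which 0 were called and 5 had an unadjusted p under 0.05 (6.58%, near the 6.29% of all tested genes). In the VEGF family beyond the 10 genes, nrp2b, the duplicate of nrp2a, was the most abundant at 365 ± 38.5 CPM in control and 395 ± 44.0 CPM in the LOF-labelled libraries (log2 fold change 0.12 ± 0.11 SE, edgeR adjusted p = 0.924). Per length its mean was 79.4 RPKM, above the 52.6 RPKM of nrp1a. pgfb, a placental growth factor gene, was at 4.29 ± 1.71 and 5.31 ± 2.01 CPM (edgeR adjusted p = 0.953), and vegfba and vegfbb were too low to test. The ligand gene vegfd was at 17.3 ± 6.11 CPM in control and 19.1 ± 4.52 CPM in the LOF-labelled libraries, with a mean of 8.65 RPKM. Its log2 fold change was 0.13 ± 0.26 (SE, edgeR adjusted p = 0.975). Of 5 genes that process Vegfc or act in lymphatic fate, 0 were called. The extracellular matrix protein gene svep1 (0.20, adjusted p = 0.894), adamts14 (0.17, adjusted p = 0.899) and adamts3, a protease gene for Vegfc (−0.13, adjusted p = 0.916), all had overlapping groups.

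Among 28 tested genes that carry the receptor signal, 17 had an estimate above 0 with a median log2 fold change of 0.020. The lowest p belonged to the Src family kinase gene fynb (0.31, edgeR adjusted p = 0.807) and the adaptor gene bcar1 (0.21, adjusted p = 0.813), and the most abundant was the small GTPase gene cdc42 (−0.046, adjusted p = 0.975). Among 15 plexin, class 3 semaphorin and related genes, 13 were above 0 with a median of 0.11. sema3h was the exception in size, at 4.63 ± 1.01 CPM in control and 2.10 ± 0.533 CPM in the LOF-labelled libraries with no overlap of the groups, yet its log2 fold change of −1.15 ± 0.29 had an edgeR adjusted p of 0.334. sema3aa (0.26, adjusted p = 0.777) and sema3d, the most abundant (0.021, adjusted p = 0.994), encode secreted class 3 semaphorins too.

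Of 15 genes that respond to VEGF in endothelium, 9 had an estimate above 0 with a median of 0.10, and 0 were called. The homeobox gene hlx1 was at 38.7 ± 5.66 CPM in control and 30.2 ± 1.74 CPM in the LOF-labelled libraries without overlap (log2 fold change −0.36 ± 0.12, edgeR adjusted p = 0.588). The immediate early gene nr4a1 was at 166 ± 25.1 and 230 ± 68.9 CPM with overlap (0.47 ± 0.20, edgeR adjusted p = 0.767). Its higher values were in LOF 2_1 and 2_2 (298 and 279 CPM). LOF 1_1 and 1_2, at 163 and 178 CPM, lay inside its control range of 143 to 200 CPM. apln, which encodes a peptide of endothelial tip cells, was at 314 ± 45.0 and 338 ± 33.2 CPM (0.11, edgeR adjusted p = 0.949). Among 10 regulators of vegfa transcription in hypoxia, 8 were above 0 with a median of 0.11. epas1a, a gene for the hypoxia-inducible factor HIF-2 alpha, was at 27.5 ± 1.67 and 43.1 ± 13.8 CPM (0.65 ± 0.20, edgeR adjusted p = 0.543) with overlapping groups. It was at 59.2 and 49.2 CPM in LOF 2_1 and 2_2 but at 28.3 and 35.7 CPM in LOF 1_1 and 1_2, against 25.5 to 29.4 CPM in control. arnt, which encodes a partner subunit, was at 4.31 ± 1.00 and 5.26 ± 0.985 CPM (edgeR adjusted p = 0.908). Its relative arnt2 was higher per length (mean 7.43 against 1.32 RPKM), at 60.1 ± 0.570 and 61.1 ± 3.26 CPM (0.024, edgeR adjusted p = 0.985). hif1ab was at 462 ± 31.6 and 433 ± 10.8 CPM (edgeR adjusted p = 0.918).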

How the data were processed

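The authors deposited 1 table of raw read counts per gene for 8 RNA-seq libraries, with gene positions, lengths and descriptions; the submitters' processing notes name GRCz11, and the aligner, counter and strand setting were not given in the sources used here. Sample columns without a label numbered 0. Genes were filtered by filterByExpr (15559 of 32520 kept) and tested with edgeR 4.0.16 (quasi-likelihood, robust, TMM scaling, Benjamini-Hochberg over all tested genes, threshold 0.05) in R 4.3.3. CPM and RPKM were computed from the deposited counts with TMM-scaled library sizes and the deposited gene length, and log2 CPM used a prior count of 2. The fit was also run on simulated counts of independent libraries. These had no replicate pairs and no library sets, so the run does not cover those features. DESeq2 1.42.0 and limma 3.58.1 served as alternatives. No label tells if both libraries in each biological replicate had their own larval pool, so p-values and intervals may in part measure technical spread. The closest libraries differed by more than counting noise (chi-square per gene 2.56 to 5.80 within a biological replicate and 13.7 to 24.2 between), and all 8 were kept.

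All 10 members are named. Of each other pathway list the text names the called genes or, where there were none, the 2 of lowest unadjusted p and the most abundant per length. It also names vegfd, vegfba, vegfbb and arnt2, outside that rule. Likeness was sought among standard-named genes whose mean log2 CPM reached 1. Of 214 list entries, 205 matched 1 row, 2 matched several and were left out, and 7 were not matched. The members and lists were chosen with earlier results of these data known, and the library sets after the data were seen. Replicate numbers as labelled did not match like libraries across the groups, and an exchange of labels was not tested.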

Additional observations from a re-analysis of the deposited data

Results flagged for a closer look

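Among 62 groups of 4 libraries checked, over the 9 tested VEGF-axis genes and other named genes, 2 held a library far from the other 3. For 4 independent normal values chance gives about 1 in 20 groups. The libraries here are pairs from biological replicates and the genes share them, so that rate is only a guide. None of the 9 VEGF-axis genes was among the 2 flagged. fynb was at 21.1 CPM in LOF 2_2 and at 15.9 to 16.4 CPM in the other LOF-labelled libraries. svep1 was at 30.5 CPM in control 1_2, the library with the lowest total count, and at 39.8 to 41.5 CPM in the other control libraries.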

How the results depend on the processing

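All 9 tested VEGF-axis genes stayed uncalled in each of the 20 tested alternatives, and 167 of their 180 log2 fold changes kept their direction while 13 turned. The lowest adjusted p was 0.275, for vegfc with the library set as a block. vegfab, with an estimate near 0, turned to 0.011 with the biological replicate number and 0.020 with the full replicate number as a replicate block, to 0.0059 with the library set block, to 0.15 in the first set alone and to 0.095 per endothelial marker sum (0.13 without fli1a in the sum), and ran from −0.15 to 0.11 as single libraries were left out. With 1 library left out, kdr ran from −0.13 to 0.19 and kdrl from −0.17 to 0.29. Both turned below 0 without control 1_1, control 1_2 or LOF 1_2, and kdr was −0.11 in the second set alone. The count of genes called, 14, was more sensitive: 32 without the low-count filter, 95 by DESeq2, 5 with biological replicate as a random effect, 0 with counts summed per biological replicate (299 genes at an unadjusted p under 0.05), and 0 to 20 as single libraries were left out (0 without control 1_1, LOF 2_1 or LOF 2_2). The replicate block gave 17 calls by biological replicate number and 0 by full number (524 genes at an unadjusted p under 0.05). Libraries of the same number deviated from their group means in opposite directions (r = −0.34 to −0.23). These values restate the crossed library sets. As labelled, the numbers did not match like libraries across the groups, and an exchange of labels was not tested. The crossed pairing, which is the library set block, gave 396 calls. The cause of these shifts was not tested. Depth limits what can be said of flt1, which had 9 counts in all.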
